A study of Mus musculus with 4 samples.

Results

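The regions described here are the accessible regions of mouse chromosome 8 with a midpoint between 18 and 24 Mb (GRCm38), 574 of the 255864 regions in the count table. They were chosen by their counts, because the window was set around a stretch in which the TCKO counts rose over the WT counts. The difference between the genotypes in this window is therefore a description and no test was made of it. Accessibility had been measured with ATAC-seq, an assay whose transposase inserts adapters into nucleosome-free DNA, in primary osteoblasts from 3-day-old C57BL/6 mice. The control group, WT, was labelled wild type, and the labels do not say which alleles it carried. The TCKO group carried floxed alleles of Tet1, Tet2 and Tet3 on both chromosomes (fl/fl each) together with Prx1-Cre. Prx1-Cre is active in the mesenchyme of the limb buds and of parts of the skull, so cells of other origin in such a culture keep their Tet genes. The labels listed 2 samples for each genotype. A protocol text gave 3 repeats, the number that the study's methods state for RNA-seq. The table held a single merged column for each genotype. No spread between replicates could be measured, so no difference below was tested. Each interval given is a 95% interval from Wilson's method for the part of the reads that came from TCKO, which accounts for counting error alone, and reads copied by PCR are not independent molecules.

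Defensins are small cationic peptides that disrupt microbial membranes. In the mouse, alpha-defensins are made mainly by the Paneth cells of the small intestine and beta-defensins by epithelia, and both families lie in tandem arrays on chromosome 8 that arose by repeated duplication. TET enzymes oxidise 5-methylcytosine, a step in the removal of DNA methylation, and act at CpG dinucleotides. Long stretches of near-identical copies are difficult to assemble and to map, because a read that fits several copies equally well is not a uniquely mapping read.

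The stretch fitted to the rise ran over the alpha-defensin array, which held no regions, and the right beta-defensin array. Whether it took in the right array depended on how the end was set, and most of its regions lay outside both arrays. It began at 19707382, ran for 2.27 Mb to 21981974 and held 220 regions. Of these, 210 lay in a main stretch from 19707382 to 20996504, between the left beta-defensin array and the alpha-defensin array. The other 10 lay in a tail from 21756537 to 21981974, which holds the right beta-defensin array. The main stretch is built largely of pseudogenes and copies of a few non-defensin genes, so it is called the main stretch and not a defensin block here. Whether the alpha-defensin array itself rose was not observed, as it held no regions.

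Of the 210 regions of the main stretch 47 belonged to sets of copies, and the sequences of 2 such sets show how alike they are and how differently they behaved. Both sets were chosen after their values were seen. Element A was present as 5 near-identical regions that held 43.3% of all WT counts of the 220 regions. Their summed counts hardly moved, while the log2 ratios of the single copies ran from -0.53 to 0.21. The 150 bases below lie around the summit that the authors' peak caller gave in WT for the first copy, read from GRCm38, and capitals mark the 8 positions at which the 5 copies are not all alike. Copies A3 and A4 were read on the minus strand and the others on the plus strand.
A1, chr8:19784506-19784655: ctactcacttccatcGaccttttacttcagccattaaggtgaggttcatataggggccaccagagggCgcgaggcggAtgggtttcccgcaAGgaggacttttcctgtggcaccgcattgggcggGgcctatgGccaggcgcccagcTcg
A2, chr8:20122143-20122292: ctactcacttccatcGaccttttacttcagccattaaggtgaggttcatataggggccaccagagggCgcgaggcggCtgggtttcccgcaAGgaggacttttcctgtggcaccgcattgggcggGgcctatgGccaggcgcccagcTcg
A3, chr8:20297520-20297669: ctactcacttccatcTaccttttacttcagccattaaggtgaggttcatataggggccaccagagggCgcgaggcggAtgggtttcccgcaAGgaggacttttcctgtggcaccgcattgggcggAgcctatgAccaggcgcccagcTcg
A4, chr8:20424788-20424937: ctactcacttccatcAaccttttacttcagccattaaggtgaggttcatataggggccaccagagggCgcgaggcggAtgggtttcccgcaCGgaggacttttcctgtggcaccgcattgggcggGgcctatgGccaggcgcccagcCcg
A5, chr8:20550083-20550232: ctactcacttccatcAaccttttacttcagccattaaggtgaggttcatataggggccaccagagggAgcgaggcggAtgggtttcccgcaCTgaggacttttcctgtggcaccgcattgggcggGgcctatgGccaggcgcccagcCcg
Each copy of these 150 bases held 7 to 9 CpG dinucleotides.

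Element B was present as 3 regions of the main stretch, each with more TCKO than WT reads before any scaling. Of the sets of 3 copies it had the highest median ratio. The whole of the shortest region is shown with the matching 104 bases of the other regions, and the capital marks the 1 position that differs. B2 was read on the minus strand.
B1, chr8:19931074-19931177: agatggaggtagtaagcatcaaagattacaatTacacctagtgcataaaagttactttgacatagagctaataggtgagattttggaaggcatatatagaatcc
B2, chr8:20332218-20332321: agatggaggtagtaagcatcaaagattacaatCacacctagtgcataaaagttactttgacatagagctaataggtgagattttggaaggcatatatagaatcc
B3, chr8:20511256-20511359: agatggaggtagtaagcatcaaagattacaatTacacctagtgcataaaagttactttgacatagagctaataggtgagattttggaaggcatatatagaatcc
These 104 bases held 0 CpG dinucleotides and had a GC content of 34.6% to 35.6%.

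The table summed to 56898657 counts in WT and 34608167 in TCKO. TCKO counts were therefore multiplied by 1.64, the ratio of these totals, and a ratio is given as log2 of the scaled TCKO count over the WT count with 1 count added to each. On this scale the median of all regions was 0.06. The promoters of all 8 osteoblast markers examined, Runx2, Sp7, Col1a1, Col1a2, Alpl, Bglap, Ibsp and Spp1, had regions, with 93 to 2075 counts a gene in WT. Those of the 3 skeletal muscle markers had none. Promoter regions were present for 4 of 7 Paneth cell and epithelial markers (0 for the Paneth cell genes Lyz1 and Mptx2), 5 of 7 macrophage, osteoclast and neutrophil markers and 3 of 3 endothelial markers, and the log2 ratios of their summed counts were 0.07, -0.44 and 0.72. The sign of the macrophage list rested on Ctsk, an osteoclast protease with 1379 WT and 460 TCKO counts. The study also describes Ctsk as a marker of periosteal stem cells, and as closed in its TCKO cells. Without Ctsk the list held 643 and 448 counts, a ratio of 0.20 (0.02 to 0.37). Leaving out the gene with most WT counts from the other lists gave 0.43 for the epithelial list without Krt5 and 0.94 for the endothelial list without Kdr. For the osteoblast list without Col1a2 it gave -0.11. In WT a gene of the epithelial list held 0 to 144 counts, one of the macrophage list 0 to 1379 and one of the endothelial list 57 to 399. The part of other cell types in the values below was not tested.

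The start of the rise was sharp. The 3 regions before it held 92, 433 and 87 counts in WT and 82, 296 and 58 in TCKO, log2 ratios of 0.55, 0.17 and 0.13. The 3 regions after it, all intergenic and 16105 to 22046 bp from the start of 4930467E23Rik, held 236, 72 and 59 counts in WT and 185, 91 and 110 in TCKO, log2 ratios of 0.36, 1.04 and 1.60. The ratio first passed 2-fold at the second region. It did not stay there, and the 3 regions between 19.8 and 19.9 Mb had a median of 0.66, with 0 of them 2-fold higher. No other start than 19707382 or 19709660 came within 2 log-likelihood units of the best position, a likelihood that allows for counting error alone. The few regions just before the start, from 19681049 on, followed an interval of 0.517 Mb without regions. Their ratios ran from 0.13 to 0.55, against a median of -0.11 for the left flank. In bins of 100 kb the median went from 0.19 over 4 regions between 19.6 and 19.7 Mb to 1.08 over 13 regions in the next bin.

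The end was less sharp. The last 3 regions of the tail, of which the first 2 lie in an intron of Fam90a1a and the last is intergenic, held 26, 18 and 77 counts in WT and 17, 23 and 61 in TCKO, log2 ratios of 0.10, 1.03 and 0.38. The 3 regions after the end held 416, 50 and 41 counts in WT and 285, 27 and 27 in TCKO, log2 ratios of 0.17, -0.17 and 0.11. Of these, the first is intergenic, the second lies in an exon and the last in an intron of Atp7b. Positions from 21960288 to 21981974 were within 2 log-likelihood units of the best end. Weighing every region alike placed the end at 21824005, within the right beta-defensin array, and leaving out regions with under 50 counts placed it at 21759601, before that array.

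**Figure D1:**
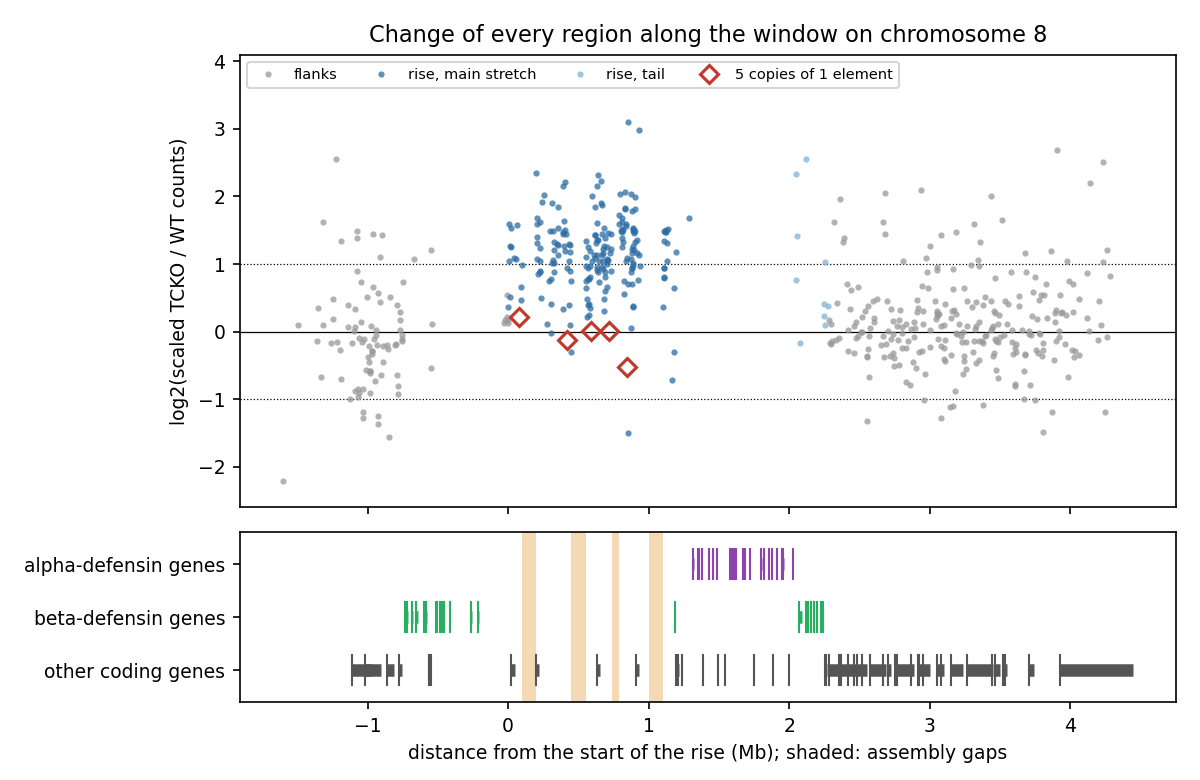
Log2 ratio of scaled TCKO over WT counts of each of the 574 regions (top) against distance from the start of the rise in Mb, with protein-coding genes by family and assembly gaps as shaded bands (bottom). Dotted lines mark 2-fold. The main stretch lies mostly near or above the upper dotted line, between the left beta-defensin genes and the alpha-defensin genes, and the 5 copies of element A (diamonds) lie from -0.53 to 0.21.

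Over the 220 regions the median log2 ratio was 1.14 (2.20-fold, quartiles 0.81 and 1.48). Of these regions 137 (62.3%) rose 2-fold or more in TCKO, against 12.3% of all regions of the table, and 1 fell 2-fold or more, against 4.51%. These counts describe a stretch that was chosen for them. Regions above a ratio of 0 numbered 212 of 220, against 139585 of the 255864 regions of the table and 184 of the 354 flank regions. The 93 regions of the left flank had a median of -0.11 with 10 at least 2-fold higher, and the 261 of the right flank a median of 0.05 with 26 higher. The median of the rise exceeded that of both flanks by 1.12, or 2.17-fold. The 210 regions of the main stretch had a median of 1.16 and the 10 of the tail one of 0.59.

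The summed counts gave a smaller value than the median. The rise held 27450 WT and 26171 TCKO counts, a pooled log2 ratio of 0.65 (95% interval 0.62 to 0.67). Without the single region with most counts the pooled value was 0.72. The level depended on the scaling, and without any scaling of TCKO the pooled value was -0.07 and the median 0.43, where the median of all regions was -0.64. Regions with 1000 counts or more over both genotypes numbered 7 and held 14307 WT and 8993 TCKO counts, a pooled log2 ratio of 0.05 (0.01 to 0.09), with 0 of 7 at least 2-fold higher. Among regions of that strength 0 of 38 in the flanks and 0.273% outside the window were 2-fold higher, so that count says nothing particular to the rise. The remaining 213 regions held 13143 and 17178 counts, a pooled ratio of 1.10 (1.07 to 1.14). In the flanks the same split gave -0.06 for 38 regions and 0.09 for 316 regions. A lower ratio at higher counts was thus seen outside the rise too, where the medians over all regions outside the window went from 0.18 at 50 to 199 counts to -0.12 at 1000 counts or more, a span of smaller size than in the rise, where they went from 1.17 to 0.02.

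Of the 7 strongest regions 5 were the copies of element A. A1, at 19784355 to 19785303 within 1 kb of the start of the processed pseudogene Gm10060, held 4390 WT and 3095 TCKO counts, a log2 ratio of 0.21. A2, at 20121736 to 20122998 beside the processed pseudogene Gm21769, held 2188 and 1223 counts, a ratio of -0.12. A3, at 20296837 to 20297812 beside the start of the transcribed pseudogene 6820431F20Rik, held 1546 and 951 counts, a ratio of 0.02. A1 to A3 thus lay close to equal counts. A4, at 20424140 to 20425169 beside the start of the transcribed pseudogene 2610005L07Rik, held 2523 and 1544 counts, a ratio of 0.01. A5, intergenic at 20549872 to 20550686, held 1242 and 523 counts, a ratio of -0.53 (-0.68 to -0.38). Together the 5 copies held 11889 and 7336 counts, a pooled ratio of 0.02 (-0.02 to 0.06). The other 215 regions of the rise had a pooled ratio of 0.99 (0.96 to 1.02), which is 1.99-fold.

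The remaining strong regions were an intergenic one at 19979679 to 19980641 with 1722 WT and 1133 TCKO counts, a log2 ratio of 0.11, and one in an intron of the lincRNA Gm26804 at 20389173 to 20389674 with 696 and 524 counts, a ratio of 0.31. The 7 strong regions were longer than the rest, with a median of 963 against 177 bp, and richer in CpG, with a median of 6.87 against 0.535 CpG per 100 bp. In the flanks the same split gave 897 against 214 bp and 4.41 against 1.30 CpG per 100 bp. That strong regions were longer and richer in CpG was thus not particular to the rise. Among the 213 weaker regions, the 16 with 2 or more CpG per 100 bp had a median log2 ratio of 0.82 and the 197 others one of 1.17. The pooled ratios of these groups were 0.67 (0.55 to 0.79) and 1.14 (1.11 to 1.17).

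**Figure D2:**
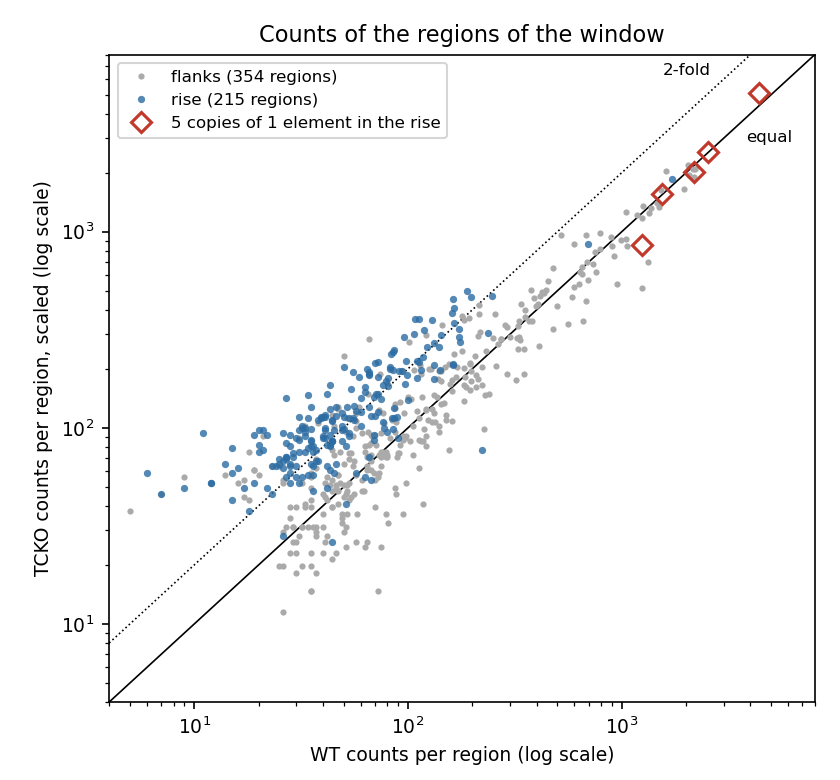
WT counts against scaled TCKO counts of each region of the window, both on log scales, for the flanks (grey), the rise (blue) and the copies of element A (diamonds). Most blue points with fewer counts lie near the 2-fold line, and the 7 regions with 1000 counts or more lie near the line of equal counts.

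Among regions whose larger count was 50 or more, the 3 largest rises lay in introns. The top one, at 20636927 to 20637044 in an intron of Gm21119, held 11 WT and 57 TCKO counts, a log2 ratio of 2.98. The next were at 19908552 to 19908666 in an intron of Gm31371, with 27 and 86 counts and a ratio of 2.35, and at 20367393 to 20367638 in an intron of Gm26804, with 20 and 59 counts and a ratio of 2.22. Under that limit, an intergenic region at 20558966 to 20559084 held 6 and 36 counts, a higher ratio of 3.10 (2.09 to 4.51). The largest fall, and the 1 region at least 2-fold lower, was at 20557520 to 20558014 beside the processed pseudogene Gm21182, with 221 and 47 counts and a ratio of -1.50. Among regions whose larger count was 50 or more, the next falls were copy A5 and a region in an exon of the processed pseudogene Gm20796 at 20883871 to 20884032, with 51 and 25 counts, a ratio of -0.30 whose interval, -0.995 to 0.37, included 0. A region under that limit, intergenic at 20875733 to 20875938, held 44 and 16 counts, a ratio of -0.72 (-1.56 to 0.07).

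Other regions occurred as copies as well. Regions that shared at least 50% of the 31-mers of the shorter one formed 21 sets of 2 or more, with 48 regions in all, 47 of them in the main stretch. Outside element A the pooled ratio of each of the 20 sets was above 0, from 0.37 to 1.65 with a median of 1.28, and 13 sets were at least 2-fold higher. Copies within such a set differed by a median of 0.44 on the log2 scale. The 3 regions of element B held 26, 164 and 107 WT counts and 38, 248 and 184 TCKO counts, log2 ratios of 1.23, 1.31 and 1.49. All 3 lay above 2-fold and their intervals overlapped. Copies share their sequence, so they are not independent of one another, and reads that fitted more than 1 copy equally well were not counted.

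The left beta-defensin array lay before the rise. Its 14 genes, from Defb40 at 18974940 to the end of Defb7 at 19497775, overlapped 0 regions, a gene being counted with the 2 kb upstream of it. Within 25 kb of these genes lay 4 regions with 2472 WT and 1496 TCKO counts, a pooled log2 ratio of -0.01 and a median of 0.35. Of these, 3 lay before the array beside Xkr5 and held 2392 of the WT counts. The other, at 19037777 to 19038201 between Defb38 and Defb39 beside the processed pseudogene Gm15366, held 80 and 103 counts, a ratio of 1.07 (0.66 to 1.502). Another 3 regions, at 19161211 to 19164008, lay inside the array but farther than 25 kb from its genes. They held 239 and 138 counts, a pooled ratio of -0.07. Between 19164008 and 19681049, a span that takes in the genes from Defb14 to Defb7, 0 regions were called. The single beta-defensin gene of the main stretch, Defb33 at 20892669 to 20897723, also had 0 regions, and the 4 regions within 25 kb of it held 306 and 257 counts, a ratio of 0.46.

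The alpha-defensin array fell in a part with no region at all. Its 22 genes lay from Defa21 at 21025545 to the end of Defa24 at 21735471, inside an interval from 20996505 to 21756536 that held 0 regions over 0.760 Mb. No other interval without regions in the window was as long. The next was the span of 0.517 Mb over part of the left beta-defensin array. Among alpha-defensin genes, Defa24 alone had regions within 25 kb, 3 regions with 95 WT and 132 TCKO counts and a ratio of 1.18. The change of the alpha-defensin genes themselves was therefore not measurable here. Of the 50-mers in this interval 76.5% occurred more than once in the genome, and it held 0 bases of assembly gap.

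The right beta-defensin array lay in the tail. Of its 9 genes, from Defb1 at 21776599 to the end of Defb13 at 21948850, 2 overlapped a region. Defb1, a beta-defensin that epithelia make constitutively, held 63 WT and 34 TCKO counts in an intron, a log2 ratio of -0.17 (-0.77 to 0.42). Defb50 held 7 and 28 counts in a region within 1 kb of its start, a ratio of 2.56 (1.55 to 3.88). The intervals of these genes did not overlap, and each gene rested on 1 region with few counts. Summed over both genes the ratio was 0.54, and it was -0.17 without scaling. The 3 regions before Defb1, at 21756537 to 21759601, held 67, 9 and 19 WT counts and 70, 30 and 32 TCKO counts, ratios of 0.77, 2.33 and 1.42.

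The coding genes of the main stretch other than Defb33 numbered 7, and 5 of them had regions. Their summed ratios were close together. 4930467E23Rik, the nearest coding gene inside the start, held 177 WT and 270 TCKO counts, a log2 ratio of 1.32. Gm31371 held 458 and 770 counts, a ratio of 1.46, and Gm15319 held 326 and 486, a ratio of 1.29. Gm21119 held 218 and 350 counts, a ratio of 1.40, and Gm15056 held 35 and 49, a ratio of 1.18. Together the regions of these genes numbered 26 with 1214 and 1925 counts, a ratio of 1.38 (1.28 to 1.49). The first 4 consisted to 73.8% to 93.3% of 50-mers that occurred more than once, and Gm15056 to 0%. In the main stretch 28 genes were annotated, of which 8 were protein-coding, 10 processed pseudogenes, 6 unprocessed pseudogenes, 2 transcribed unprocessed pseudogenes and 2 lincRNAs. Promoter regions, within 1 kb of a start, numbered 20 of 210, and 1 of them belonged to a protein-coding gene.

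The genes next to the rise did not share it. To the left, Mcph1, which acts in chromosome condensation, held 13663 WT and 7802 TCKO counts over 44 regions, a log2 ratio of -0.09. Angpt2, a ligand of the endothelial receptor Tie2, lies within Mcph1 and held 4460 and 2381 of these same counts, a ratio of -0.19. Agpat5, an acyltransferase of lipid synthesis, held 2569 and 1364, a ratio of -0.20. Xkr5, the last gene with regions before the left beta-defensin array, held 2026 and 1238 counts, a ratio of 0.01. The nearest coding gene outside the start, Defb7, had 0 regions.

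To the right, Fam90a1a, inside the end, held 44 WT and 40 TCKO counts, a log2 ratio of 0.57, and Ccdc70, the nearest coding gene inside the end, had 0 regions. Atp7b, a copper-transporting ATPase and the nearest coding gene outside the end, held 2725 and 1672 counts, a ratio of 0.01. Beyond it followed Nek5 and Nek3, which are NIMA-related kinases, with ratios of 0.27 and -0.16. Ckap2, a spindle protein, had a ratio of -0.07 and Vps36, a subunit of the ESCRT machinery that sorts membrane proteins, one of -0.04. Each of these genes thus lay below the ratio of every coding gene with regions in the main stretch.

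Farther right the ratios of the genes listed for description lay between -0.30 and 0.26. Slc20a2, a phosphate transporter, held 3969 WT and 2043 TCKO counts, a log2 ratio of -0.24, and Vdac3, a channel of the mitochondrial outer membrane, had a ratio of -0.11. Dkk4, a secreted Wnt antagonist, held 91 and 45 counts, a ratio of -0.30 (-0.81 to 0.21). Polb, a repair DNA polymerase, had a ratio of 0.20, Ikbkb, a kinase of the NF-kB pathway, one of 0.04, and Plat, the tissue plasminogen activator, one of 0.26. Kat6a, a histone acetyltransferase, had 0.11, Ank1, an ankyrin of the membrane skeleton, 0.20, and Sfrp1, a secreted Wnt antagonist, 0.07. All 26 coding genes of the right flank had regions, with ratios from -0.49 to 0.43 and a median of 0.00. The highest was that of Zmat4, a zinc finger gene at the end of the window, named after its values were seen, with 3303 and 2708 counts over 38 regions. The last bin of 250 kb, all within Zmat4, held 15 regions with 1169 and 1192 counts, a pooled ratio of 0.75 (0.63 to 0.86) and a median of 0.45. Its pooled ratio was thus above that of the rise, and its median below.

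Repeated sequence and assembly gaps moved with the rise. In the main stretch 73.0% of the 50-mers occurred more than once in the genome, against 12.6% in the left flank, 5.53% in the right flank and 12.4% in the tail. Its assembly had 4 gaps with 350000 bases in all, 27.2% of its length, and the window outside it had 0. It held 224 regions per sequenced Mb, against 54.5 and 129 in the left and right flanks. Of the 50-mers within the regions of the rise 29.0% were unique, 39.4% had copies only in the window and 31.6% had a copy outside it. At least 50% of the 50-mers were not unique in 169 of the 220 regions, against 3 of 93 in the left and 1 of 261 in the right flank.

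**Figure D3:**
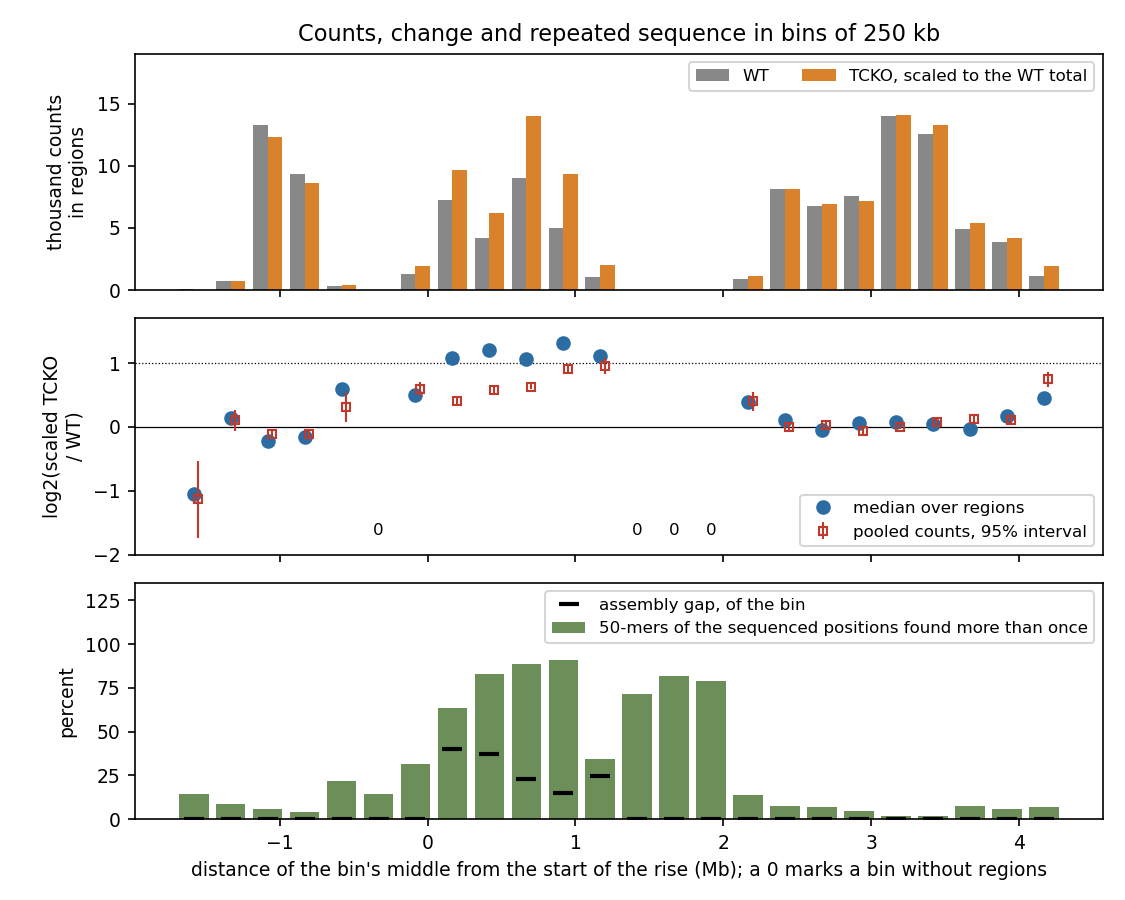
Counts in regions (top), log2 ratio of scaled TCKO over WT (middle, medians over regions and pooled counts with 95% intervals) and shares of repeated 50-mers and of assembly gaps (bottom) in bins of 250 kb, against distance from the start of the rise in Mb. The 5 bins with medians above 1 are the 5 bins with gaps, and 3 of the 4 bins without regions, marked 0, hold 71.6% to 81.9% repeated 50-mers.

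Within the rise the median ratio was high in regions with much and with little repeated sequence, and lower in those with none. The 57 regions in which each 50-mer was repeated had a median log2 ratio of 1.23, the 112 with 50% to under 100% one of 1.08 and the 35 with less one of 1.22. The 16 with no repeated 50-mer had a median of 0.71 and a pooled ratio of 0.65 (0.51 to 0.79), and 10 of them were the regions of the tail. Outside the window the medians were 0.41 over 104 regions with only repeated 50-mers, 0.21 over 1509, 0.11 over 14468 and 0.06 over 239209 with none. Pooled over the counts, the same groups of the rise gave 1.19, 0.54, 0.66 and 0.65, the second of them holding the copies of element A. Outside the window the median thus rose with repeated sequence, to a lower level than in the rise. Within the rise neither the medians nor the pooled ratios rose steadily with it. The part of repeated sequence, and of the number of copies each genome carried, in the rise was not tested.

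**Figure D4:**
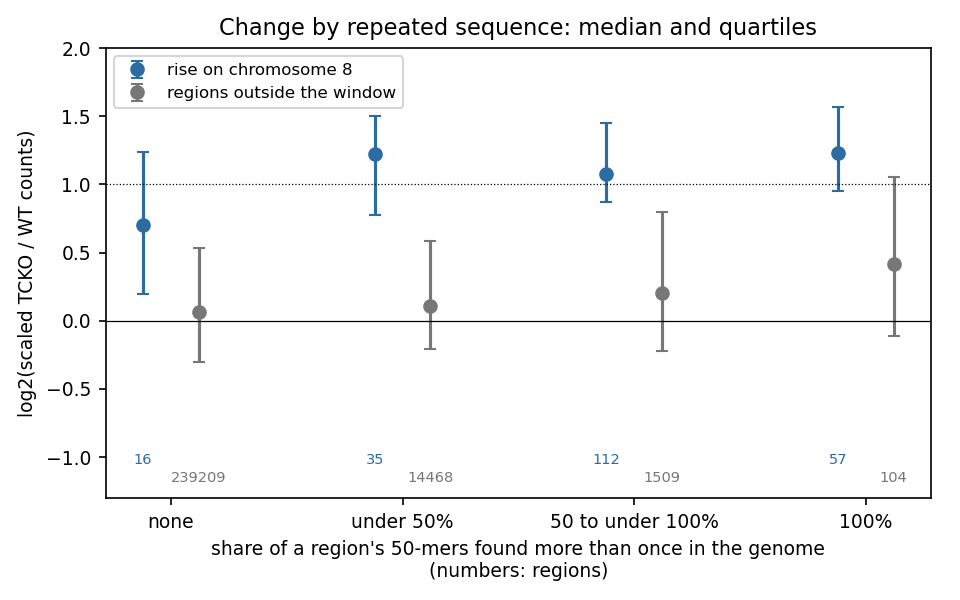
Median log2 ratio with quartiles by the share of a region's 50-mers that occur more than once in the genome, for the rise (blue) and for regions outside the window (grey), with the number of regions under each. At each share the median of the rise lies above that of the other regions, 1.23 against 0.41 where every 50-mer is repeated.

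The peak lists differed in the same stretch. A peak summit only in the TCKO list was present in 74 of the 220 regions (33.6%), against 10.2% of all regions, and a summit only in the WT list in 30 (13.6%), against 33.0% of all regions. In the main stretch the authors' peak caller gave 167 summits in WT and 208 in TCKO, whereas it gave 118 and 84 in the left flank and 340 and 241 in the right flank. The local background of the peak caller, recovered from its fold and p-value, had a median of 2.35 reads in WT and 2.78 in TCKO at the summits of the main stretch. After correction for the background level of each library this was a log2 difference of 0.29, against -0.06 and -0.05 in the left and right flanks. The median pileup at the summits of the main stretch was 15 reads in WT and 16 in TCKO. It was 20 and 20 in the left flank, 19.5 and 19 in the right flank and 13.5 and 10 in the tail. Each of these medians is over the summits called in that genotype, so the sets compared are not the same.

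Binding motifs were searched on both strands in the central 200 bp. The AP-1 motif TGANTCA was present in 25 of the 220 regions (11.4%), against 23.6% of all regions. The Runt motif TGTGGTT was present in 7.27%, against 8.72%, and the TEAD motif ACATTCC in 4.55%, against 5.59%. Regions of the rise with an AP-1 motif had a median log2 ratio of 0.99 and those without one of 1.17. A match of this kind is a description of the letters and not of binding.

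Along the genome, 7859 bins of 250 kb held at least 10 regions, and in 77 of them (0.98%) the median was 2-fold higher or more in TCKO. The main stretch held 5 of these in a row, from 19.75 to 21.0 Mb, with medians of 1.06 to 1.32. The next longest runs were 3 bins on chromosome 4 (from 35.5 Mb) and 2 bins on chromosome 6 (from 27.5 Mb). The highest bin of the window ranked 14th of all bins, so its level was reached elsewhere.

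Other families of gene clusters had medians below that of the rise, each over all regions of the family. The beta-defensin clusters on chromosomes 2 and 14 held 70 regions with a median log2 ratio of 0.12 and 11 at least 2-fold higher (15.7%, against 12.3% of all regions). In 33 olfactory receptor clusters the median was 0.15 over 1081 regions, and in 16 vomeronasal receptor clusters it was 0.10 over 335 regions. At least 2-fold higher were 16.1% of the olfactory and 17.3% of the vomeronasal regions. No value was taken for single receptor clusters, so whether any of them reached the level of the rise is not known. These families are also tandem arrays, but at least 50% of the 50-mers were not unique in only 1, 19 and 13 of their regions. Bins of 250 kb with at least 10 regions of which 50% or more were largely repeated numbered 8 outside the window, with medians from -0.09 to 1.46, and 3 of them were at least 1. Those were bins on chromosome 1 from 85.0 Mb, with 12 regions, on chromosome 10 from 58 Mb, with 10, and on chromosome 9 from 3.0 Mb, with 23. A high ratio in largely repeated sequence was therefore seen in some such bins and not in others.

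At the limits of the window the regions differed in direction. The first region inside, at 18101580 to 18102102, held 72 WT and 9 TCKO counts, and the nearest one before the window 49 and 43. The last region inside, at 23989419 to 23989963, held 215 and 231 counts, and the nearest one after the window 130 and 180. Their log2 ratios were -2.21, 0.52, 0.82 and 1.18.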

How the data were processed

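ATAC-seq libraries of WT and TCKO osteoblasts were analysed from the processed files. Per the study's methods, the authors aligned reads end to end with STAR 2.7.0e to GRCm38, kept uniquely mapping reads, pooled the libraries by genotype and ran the peak caller MACS2. The authors deposited 1 table of read counts per region, with 1 merged column for each genotype. The deposited peak lists hold fold enrichment at the summit as a ratio to the local background. The deposited lists also hold −log10 p, and a score of 10 times −log10 q, from the authors' peak caller.

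Members and gene lists were chosen with earlier results of these data known. The edges were set by the maximum binomial likelihood of 1 segment of at least 10 regions on the raw counts. Counts of TCKO were scaled by the total (56898657 in WT, 34608167 in TCKO) and 1 count was added. Occurrences of 50-mers were counted in the reference of the same build. The genes named were defensin genes of the window with regions, the nearest coding genes at each edge and a list of flank genes, with the other coding genes of the main stretch named in addition after their values were seen. The regions named were the 5 with most TCKO counts, the 3 largest rises and falls and the 3 on each side of each edge, and others were named after their values were seen. Scaling factors were computed with edgeR 4.0.16 (TMM) and DESeq2 1.42.0 (size factors), without their tests, in R 4.3.3. The rest was done with Python 3.11.15, numpy 2.4.6, pandas 2.3.3, scipy 1.17.1 and statsmodels 0.14.6, and the edge search was tested on simulated data.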

Additional observations from a re-analysis of the deposited data

How the results depend on the processing

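The start of the rise kept its place within 1 region under the 4 other ways of setting the edges, while the end moved to 21.8240 Mb by least squares of the log2 ratio and to 21.7596 Mb among regions with at least 50 counts. The median log2 ratio of the rise, 1.14 as reported, was 0.43 without scaling, 0.54 when scaled by the peak caller's background, 0.95 after a loess correction for abundance, 0.97 after centring in bins of GC content and 1.01 with 10 counts added. The difference from the flanks was 1.003, 1.007 and 0.99 under the last 3 of these. The pooled ratio was 0.57 with TMM, 0.58 with DESeq2 size factors, 0.039 with the peak caller's background, -0.069 without scaling and 0.72 without the region with most counts, an alternative chosen after seeing the data. Regions at least 2-fold higher numbered 27 without scaling, 34 with the peak caller's background and 52 where the whole interval had to pass. With the limit raised to 3-fold, 38 regions passed. The share of all regions under each of these settings was not computed. The 12.3% given above holds for scaling by the total at 2-fold, so these counts have no background to compare with. Regions lower numbered 5 without scaling, 3 with the peak caller's background, 0 with the 3-fold limit and 2 with a 1.5-fold limit. A summit only in TCKO was present in 16.4% and 5.00% of the regions when −log10 q had to reach 5 and 10, against 4.48% and 2.13% of all regions. At 10 the share in the right flank was 4.21%. Without scaling and with the peak caller's background, the ratio was -0.17 and -0.066 for beta-defensin loci of the tail, -0.67 and -0.56 for coding genes of the right flank, -0.56 and -0.46 for olfactory and -0.61 and -0.50 for vomeronasal receptor clusters, -0.49 and -0.38 for regions elsewhere with at least 50% of 50-mers repeated and -0.29 and -0.19 where all were. For the right flank genes it was -0.031 with TMM and -0.021 with DESeq2. These scalings move all regions alike, the median of all regions being -0.64 without scaling and -0.54 with the peak caller's background. The macrophage marker list was at 0.20 without Ctsk, also chosen after seeing the data. No paired analysis was possible because both genotypes were deposited as 1 merged column, and leaving out a replicate and the tests of edgeR and DESeq2 were not run for the same reason.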
